A study of Mus musculus with 24 samples.

Results

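Ly6Chi monocytes are the short-lived classical monocytes of the blood, which leave the bone marrow, enter inflamed tissue and can convert into Ly6Clo patrolling monocytes. The comparison described here sets the Ly6Chi monocytes of wild-type (wt) mice treated with imiquimod (IMQ) against those of Sham-treated wt mice. It rests on 8 of the 24 RNA-sequencing libraries of the study, 4 per group, chosen by the genotype, cell subset and treatment in their labels. IMQ-treated mice received 50 mg per day of Aldara, a cream with 5% imiquimod, on depilated skin for 4 to 5 days, and Sham-treated mice received Vaseline. The methods on RNA isolation call the controls untreated and a figure legend calls them naive. Blood was taken on day 5. All mice were 8 to 10 weeks old and on a C57BL/6 background, and wt mice were littermates of the mutants. The sort took Lin-CD11b+GFP+CD115+Ly6ChiCD43-MHC-II- cells, so all 4 groups of Ly6Chi cells also carried the GFP reporter in the *Cx3cr1* locus, and the gate bears directly on *Ly6c2*, *Spn* (CD43), *Csf1r* (CD115), *Cx3cr1* and the MHC class II genes. Whether the wt littermates carried the Cre or the floxed allele is not given in the sources used here. For comparison, the same contrast was computed in 8 libraries of Ly6Chi cells of N2ΔMy mice, in which Cre expressed from the *Lyz2* locus of myeloid cells deletes *Notch2*. Some levels of wt Ly6Clo cells after IMQ, sorted as Ly6Clo/-MHC-II- cells, are given as well.

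Imiquimod is an agonist of Toll-like receptor 7 (TLR7), an endosomal receptor for single-stranded RNA that signals through the adaptor MyD88 to NF-kB and to interferon regulatory factors. Type I interferon made in such a response acts through its receptor and a transcription factor complex that includes STAT2 and IRF9 and binds the interferon-stimulated response element in the promoters of interferon-stimulated genes. Inflammation also drives the bone marrow to release young monocytes, some of which arise from progenitors shared with neutrophils and carry neutrophil-type granule genes.

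Values are the deposited normalized counts, compared as log2(value + 1) with limma. A gene is said to have risen or fallen when its Benjamini-Hochberg adjusted p over the 11230 genes tested was at most 0.05 and its absolute log2 fold change at least 0.6. By this rule 9.49% of the genes tested were called, 4.43% as risen and 5.07% as fallen, 289 and 311 genes by at least 2-fold, and the median log2 fold change over all genes tested was 0.0135. Reads counted on genes, inferred from the values, lay between 9524061 and 15748655 per library. The mitochondrial share of the values was 6.02% to 7.05% in Sham and 6.10% to 8.93% in IMQ libraries, with the highest in IMQ 4. Replicates 1 and 2 belong to a first and replicates 3 and 4 to a second library series, as the library numbers in the labels show. The study's methods call its n biological replicates, while the labels do not tie a library to a mouse, and p-values measure the spread between these libraries. The 10 markers of Ly6Chi monocytes summed to between 194994 and 245900 in Sham and between 197151 and 247274 in IMQ libraries. Markers of T cells summed to at most 4. B cell markers summed to between 2055 and 3226 in Sham and between 1280 and 2525 in IMQ libraries, nearly all of it *Ighm* (log2 fold change -0.62, not called), with *Ms4a1* at 0. With the replicate number as a block, 1 of the 2 B cell markers tested was called lower. Plasmacytoid dendritic cell markers summed to between 2018 and 2602 and between 1987 and 2166, mostly *Tcf4* and *Runx2*, with *Siglech* at most 9. Hemoglobin transcripts summed to 716 in IMQ 4, 254 in Sham 1 and 287 in Sham 3, and to at most 22 in the other libraries. Cells of a type being fewer and RNA per cell being less cannot be told apart in such bulk libraries.

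The broadest change was a fall of type I interferon-stimulated genes after IMQ. Of the 57 genes of this list that were tested, 48 fell and 0 rose, against 5.07% of all genes tested that fell, and all 57 had a negative log2 fold change. The list median was -1.41, and 43 members fell by at least 2-fold. With the replicate number as a block, 50 fell, where 6.03% of all genes tested fell. All 4 IMQ libraries lay below all 4 Sham libraries for 52 members, against 11.5% of all genes tested that were lower in every IMQ library.

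Promoters of 4 genes that fell are shown because they hold the letters to which the interferon-activated complex is known to bind. Each is the window of 250 bases before to 50 bases after the transcription start from RefSeq (GRCm38.p6), 5′ to 3′ on the strand of the gene, and capitals mark matches to GAAANNGAAA or its reverse complement TTTCNNTTTC. *Ifit3* and *Ifit3b* are paralogs that make interferon-induced tetratricopeptide repeat proteins, *Stat2* encodes a subunit of the interferon-activated complex itself, and *Cxcl10* encodes a chemokine that attracts activated T cells.
Ifit3, chr19:34583279-34583578, plus strand: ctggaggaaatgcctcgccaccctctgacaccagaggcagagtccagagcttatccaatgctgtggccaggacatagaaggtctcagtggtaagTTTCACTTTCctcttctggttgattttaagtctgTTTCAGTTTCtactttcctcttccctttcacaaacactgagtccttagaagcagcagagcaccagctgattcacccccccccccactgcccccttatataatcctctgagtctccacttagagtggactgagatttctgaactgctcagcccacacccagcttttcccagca
Ifit3b, chr19:34607707-34608006, plus strand: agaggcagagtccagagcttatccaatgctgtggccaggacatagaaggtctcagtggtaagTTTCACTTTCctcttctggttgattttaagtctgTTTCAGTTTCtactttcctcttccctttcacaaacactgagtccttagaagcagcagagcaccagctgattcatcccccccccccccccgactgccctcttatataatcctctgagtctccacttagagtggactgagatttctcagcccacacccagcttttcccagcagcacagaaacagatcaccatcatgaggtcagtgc
Stat2, chr10:128270248-128270547, plus strand: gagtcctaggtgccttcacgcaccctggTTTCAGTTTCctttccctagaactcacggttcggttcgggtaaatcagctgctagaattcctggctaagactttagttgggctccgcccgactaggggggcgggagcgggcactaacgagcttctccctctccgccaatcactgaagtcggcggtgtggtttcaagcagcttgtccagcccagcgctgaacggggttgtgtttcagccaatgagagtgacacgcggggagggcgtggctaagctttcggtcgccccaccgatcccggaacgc
Cxcl10, chr5:92348840-92349139, minus strand: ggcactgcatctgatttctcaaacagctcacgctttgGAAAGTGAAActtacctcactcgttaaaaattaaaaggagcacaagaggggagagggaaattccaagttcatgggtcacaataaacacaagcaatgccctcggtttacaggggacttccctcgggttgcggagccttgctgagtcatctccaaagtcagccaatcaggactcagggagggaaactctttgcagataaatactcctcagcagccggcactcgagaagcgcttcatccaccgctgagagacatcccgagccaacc
The matches begin 156 and 122 bases before the start in *Ifit3*, 188 and 154 in *Ifit3b*, 222 in *Stat2* and 213 in *Cxcl10*. When the windows of *Ifit3* and *Ifit3b* are shifted by 32 bases, 201 of 268 positions hold the same base without gaps. Of all 32851 promoter windows in the reference table, 3.44% hold such a match on either strand. A promoter entry was found for 42 of the 57 listed genes, and 23 of these (54.8%) had a match, against 4.16% of the 8240 tested genes with an entry. Outside the list, 42 of 386 genes that fell and have an entry held a match (10.9%), and over all genes that rose it was 14 of 395 (3.54%). A match describes the letters of the window and not the binding of a factor.

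*Ifit3* (ENSMUSG00000074896.3, chromosome 19, 34583531 to 34588731, GRCm38) was at 1323, 1276, 1065 and 1365 normalized counts in Sham 1 to 4 and at 44, 158, 168 and 49 in IMQ 1 to 4. The groups are far apart, a 12-fold fall of the means (log2 fold change -3.83, SE 0.41, adjusted p = 2.3e-04). *Ifit3b* (ENSMUSG00000062488.9, chromosome 19, 34607970 to 34613401) was at 378, 352, 348 and 398 normalized counts in Sham 1 to 4 and at 9, 57, 41 and 7 in IMQ 1 to 4 (log2 fold change -4.14, SE 0.57, adjusted p = 8.5e-04). Reads of these near-identical copies may have been split between them by the alignment. Outside that family, *Siglec1* (ENSMUSG00000027322.11, chromosome 2, 131069220 to 131086765), a sialic acid receptor on myeloid cells that interferon induces, was at 2652, 1833, 1740 and 2035 normalized counts in Sham 1 to 4 and at 118, 264, 259 and 107 in IMQ 1 to 4 (log2 fold change -3.56, SE 0.29, adjusted p = 7.2e-05). Every Sham value was far above every IMQ value. *Stat2* was at 4371, 4141, 4013 and 3749 normalized counts in Sham 1 to 4 and at 1245, 1592, 1476 and 955 in IMQ 1 to 4 (log2 fold change -1.65, SE 0.14, adjusted p = 8.9e-05). *Samd9l*, an antiviral factor, was at 4411, 4800, 3974 and 4695 normalized counts in Sham 1 to 4 and at 1164, 1742, 1664 and 1129 in IMQ 1 to 4 (log2 fold change -1.67, SE 0.15, adjusted p = 9.0e-05). The smallest p of the list was that of *Tor3a*, an interferon-induced ATPase of the endoplasmic reticulum, at 1902, 1866, 1726 and 1782 normalized counts in Sham 1 to 4 and at 833, 943, 853 and 734 in IMQ 1 to 4 (log2 fold change -1.12, SE 0.09, adjusted p = 6.9e-05).

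The 4 IMQ libraries were not alike in these genes. In 41 of the 48 listed genes that fell, IMQ 1 and IMQ 4 were both lower than IMQ 2 and IMQ 3, an order found in 34.8% of all genes that fell and in 9.76% of all genes tested, and singled out after the values were seen. These libraries come from different series, so the order does not follow the series. The summed value of the 57 genes was 55574, 76691, 83318 and 63259 in IMQ 1 to 4 and between 150842 and 158740 in the Sham libraries. All 4 IMQ sums were thus well below the lowest Sham sum.

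Of the 9 listed genes that did not pass the test, 7 had log2 fold changes between -0.08 and -1.05. *Ifi213* and *Ifi44*, named here for their spread after their values were seen, varied widely, the former among IMQ libraries and the latter in both groups. *Ifi213* was at 1329, 606, 1186 and 1198 normalized counts in Sham 1 to 4 and at 111, 0, 771 and 135 in IMQ 1 to 4 (log2 fold change -4.14, adjusted p = 0.102). *Ifi44* was at 170, 818, 58 and 1363 normalized counts in Sham 1 to 4 and at 113, 663, 677 and 187 in IMQ 1 to 4 (log2 fold change -0.06, adjusted p = 0.977). In both genes the groups overlapped.

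**Figure D1:**
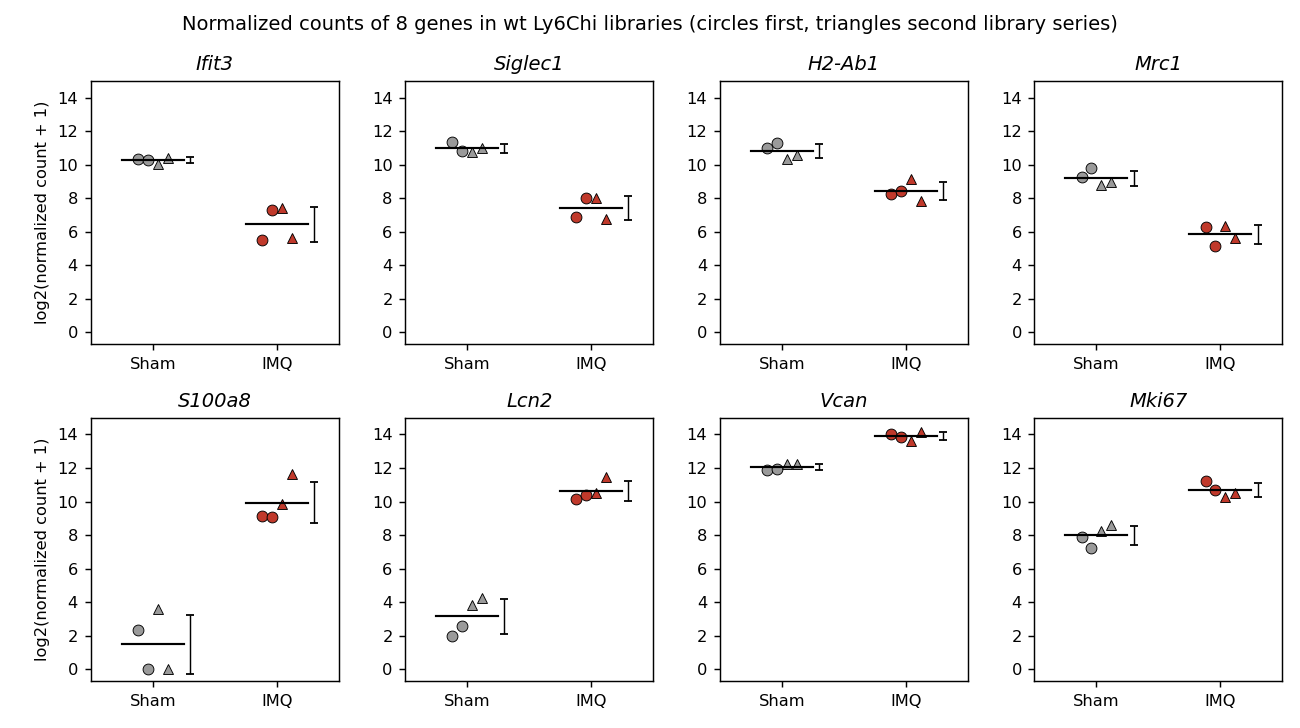
Values of 8 genes in the 4 Sham (grey) and 4 IMQ (red) libraries of wt Ly6Chi cells, as log2(normalized count + 1). Circles are the first and triangles the second library series, lines are group means and bars at their right are 1 SD (n = 4). The groups do not overlap for any of the 8 genes, and *Ifit3*, *Siglec1*, *H2-Ab1* and *Mrc1* were lower and *S100a8*, *Lcn2*, *Vcan* and *Mki67* higher after IMQ.

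Interferon-inducible GTPases attack vacuoles that hold pathogens and respond to both type I and type II interferon. Of 17 listed, 11 were high enough to be tested, of which 7 fell and 0 rose, where 5.07% of all genes tested fell. The median log2 fold change of those tested was -1.05. *Gbp9*, a guanylate-binding protein, was at 1452, 1172, 1192 and 1076 normalized counts in Sham 1 to 4 and at 262, 475, 437 and 286 in IMQ 1 to 4 (log2 fold change -1.78, SE 0.19, adjusted p = 2.5e-04). *Igtp*, a member of the immunity-related GTPases, was at 654, 660, 545 and 486 normalized counts in Sham 1 to 4 and at 230, 292, 264 and 230 in IMQ 1 to 4 (log2 fold change -1.20, SE 0.14, adjusted p = 3.6e-04). *Gbp7* and *Gbp5* fell as well, by 2.25-fold and 2.02-fold. As in the list above, IMQ 1 and IMQ 4 held the lowest values of *Gbp9*, *Gbp7* and *Gbp5*. *Iigp1*, named after its values were seen, was the member with a positive log2 fold change, 0.45 (adjusted p = 0.555).

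The receptor of imiquimod and its adaptor did not pass the test. *Tlr7* was at 2879, 3032, 3126 and 2932 normalized counts in Sham 1 to 4 and at 2320, 2978, 2997 and 3349 in IMQ 1 to 4 (log2 fold change -0.05, adjusted p = 0.805), and *Myd88* was at 2217, 2096, 1859 and 1617 normalized counts in Sham 1 to 4 and at 2498, 2872, 1747 and 2546 in IMQ 1 to 4 (log2 fold change 0.30, adjusted p = 0.227). The groups overlap in both genes. Of the 29 Toll-like receptors and adaptors tested, 1 rose and 2 fell, where 4.43% of all genes tested rose and 5.07% fell. The median log2 fold change of these 29 was -0.05. *Tlr9*, the endosomal receptor for CpG DNA, was at 2441, 2076, 2034 and 1916 normalized counts in Sham 1 to 4 and at 879, 841, 832 and 593 in IMQ 1 to 4 and fell by 2.69-fold (log2 fold change -1.44, SE 0.13, adjusted p = 1.1e-04). *Irak2*, a kinase of the MyD88 complex, fell by 1.59-fold and *Tlr1*, which pairs with TLR2 to bind lipopeptides, rose by 1.57-fold (adjusted p = 0.0123). The call of *Tlr1* was lost without IMQ 2 or without Sham 2, and that of *Irak2* without IMQ 1 or without Sham 3.

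Among 22 genes of the NF-kB pathway and feedback inhibitors, 1 rose and 4 fell, with 8 falls in the first and 2 in the second series alone. The gene that rose was *Socs3*, the inhibitor of signalling by IL-6-type cytokines and G-CSF, at 783, 816, 659 and 959 normalized counts in Sham 1 to 4 and at 2010, 2419, 1912 and 3056 in IMQ 1 to 4 (log2 fold change 1.53, SE 0.16, adjusted p = 1.9e-04). *Nfkbie*, an IkB protein, fell by 2.16-fold (log2 fold change -1.12, SE 0.12, adjusted p = 2.6e-04), *Nfkbid* by 1.76-fold and *Tnfaip3*, the deubiquitinase A20, by 1.99-fold. *Socs1*, which restrains interferon signalling, was low in both groups, at 35, 40, 18 and 38 normalized counts in Sham 1 to 4 and at 14, 9, 10 and 6 in IMQ 1 to 4 (log2 fold change -1.64, SE 0.41, adjusted p = 0.0205). Its call was lost without any 1 of 4 libraries, IMQ 2, Sham 1, Sham 2 or Sham 4.

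Of 14 genes of antigen presentation through MHC class II listed, 13 were high enough to be tested. Of these 6 fell, 0 rose and 7 did not pass the test, where 5.07% of all genes tested fell. Their median log2 fold change was -0.77. *H2-Ab1*, the beta chain of I-A, was at 2047, 2563, 1289 and 1559 normalized counts in Sham 1 to 4 and at 306, 351, 571 and 230 in IMQ 1 to 4 (log2 fold change -2.38, SE 0.27, adjusted p = 3.5e-04), and *H2-Aa*, its alpha chain, lay between 762 and 1475 in Sham and between 149 and 406 in IMQ libraries (log2 fold change -2.29, SE 0.30, adjusted p = 7.3e-04). *Cd74*, the invariant chain that guards the peptide groove, was at 9267, 11462, 5042 and 6371 normalized counts in Sham 1 to 4 and at 2454, 2672, 3047 and 1854 in IMQ 1 to 4 (log2 fold change -1.63, SE 0.24, adjusted p = 0.00119). *H2-DMb1*, part of the peptide-loading complex, fell by 1.93-fold. In all 4 genes every IMQ value was below the lowest Sham value, which was that of Sham 3. The sort excluded cells with MHC class II protein on their surface in both groups. Within the series, the log2 fold change of *H2-Ab1* was -2.80 in the first and -1.96 in the second. Of 21 genes of MHC class I presentation and the immunoproteasome, 4 fell and 0 rose. *H2-T24* was at 3558, 2835, 3016 and 3179 normalized counts in Sham 1 to 4 and at 736, 1154, 1143 and 676 in IMQ 1 to 4 (log2 fold change -1.80, SE 0.17, adjusted p = 1.5e-04), while *H2-T23*, which encodes Qa-1, and *Nlrc5*, the transactivator of MHC class I, fell by 1.75-fold and 1.74-fold. *H2-Q6* fell by 2.42-fold, and its reads may be shared with similar class I genes.

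Of 20 genes of monocytes with dendritic cell features listed, 14 were high enough to be tested. Of these 7 fell and 0 rose, where 5.07% of all genes tested fell, and their median log2 fold change was -0.93. *Cd209a* (ENSMUSG00000031494.7, chromosome 8, 3743397 to 3748984), a C-type lectin that marks monocytes inclined to become dendritic cells, was at 408, 642, 292 and 371 normalized counts in Sham 1 to 4 and at 1, 3, 44 and 1 in IMQ 1 to 4. It held the largest fall of all genes named here, and IMQ 3 stands apart from the other IMQ libraries. *Cd83*, a surface protein of maturing antigen-presenting cells, was at 60, 116, 46 and 52 normalized counts in Sham 1 to 4 and at 1, 3, 8 and 3 in IMQ 1 to 4 (log2 fold change -3.98, SE 0.52, adjusted p = 6.5e-04). *Irf4*, a transcription factor of such dendritic cells, was at 1898, 1938, 1741 and 2017 normalized counts in Sham 1 to 4 and at 800, 844, 897 and 724 in IMQ 1 to 4, a difference with little spread (log2 fold change -1.22, SE 0.09, adjusted p = 4.5e-05). *Kmo*, a kynurenine enzyme, fell by 2.73-fold and *Batf3*, a factor of cross-presenting dendritic cells, by 2.95-fold. The 8 markers of conventional dendritic cells summed to between 1360 and 1877 in Sham and between 359 and 738 in IMQ libraries, mostly from *Flt3*, *Cd209a* and *Batf3*, and 4 of the 5 that were tested fell. Of the defining markers, *Clec9a* was at 76, 135, 48 and 112 in Sham 1 to 4 and at 17, 17, 53 and 2 in IMQ 1 to 4, and *Xcr1* was at most 1 in all 8 libraries. The part of such cells in the falls of MHC class II genes and of genes with dendritic cell features was not tested.

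Of 24 macrophage genes listed, 18 were high enough to be tested. Of these 7 fell, 0 rose and 11 did not pass the test, where 5.07% of all genes tested fell. Their median log2 fold change was -0.43. *Mrc1*, the mannose receptor, was at 608 ± 198 (SD, n = 4) normalized counts in Sham and at 77, 35, 82 and 48 in IMQ 1 to 4 (log2 fold change -3.34, SE 0.30, adjusted p = 9.8e-05). *Msr1*, scavenger receptor A, was at 2068, 2038, 1969 and 2143 normalized counts in Sham 1 to 4 and at 805, 912, 982 and 969 in IMQ 1 to 4 (log2 fold change -1.17, SE 0.09, adjusted p = 4.5e-05). *Axl*, a receptor for apoptotic cells that interferon induces, was at 1669, 1322, 951 and 1002 normalized counts in Sham 1 to 4 and at 241, 228, 409 and 214 in IMQ 1 to 4 (log2 fold change -2.19, SE 0.23, adjusted p = 2.1e-04). *Apoe*, the lipid carrier apolipoprotein E, was among the most abundant of these transcripts, at 24922, 19299, 29443 and 33613 normalized counts in Sham 1 to 4 and at 4180, 3190, 5859 and 8323 in IMQ 1 to 4 (log2 fold change -2.38, SE 0.27, adjusted p = 3.3e-04). In none of the 4 genes did the groups overlap. Of genes known from tissue macrophages, *Timd4* and *Lyve1* were at 0, *Vcam1* at most 1 and *Marco* at most 3 in all 8 libraries. *Cd163*, a hemoglobin scavenger receptor, was at 54, 103, 18 and 28 in Sham 1 to 4 and at 10, 17, 21 and 7 in IMQ 1 to 4, and *Spic*, a transcription factor of iron-recycling macrophages, was at 41, 39, 32 and 33 normalized counts in Sham 1 to 4 and at 23, 6, 12 and 11 in IMQ 1 to 4 (log2 fold change -1.54, SE 0.41, adjusted p = 0.0268), a call lost without any 1 of 5 libraries. The 10 markers of macrophages summed to between 1000 and 1712 in Sham and between 280 and 457 in IMQ libraries, but *Axl* alone made this fall. The other 5 markers tested, all low, had positive log2 fold changes and did not pass the test, with *C1qb* at most 23 in Sham and at most 48 in IMQ libraries. *Fcgr1*, the high-affinity IgG receptor CD64, fell by 2.21-fold (log2 fold change -1.15, SE 0.13, adjusted p = 3.5e-04). Of 24 C-type lectins and scavenger receptors, 8 fell and 4 rose, and 5 fell without Sham 2 or without Sham 4. Those that rose were *Clec4e* (Mincle) by 2.18-fold, *Olr1* (LOX-1) by 2.67-fold, *Stab1* by 6.66-fold and *Cd302* by 1.59-fold, the last of which lost its call without any 1 of 5 libraries.

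**Figure D2:**
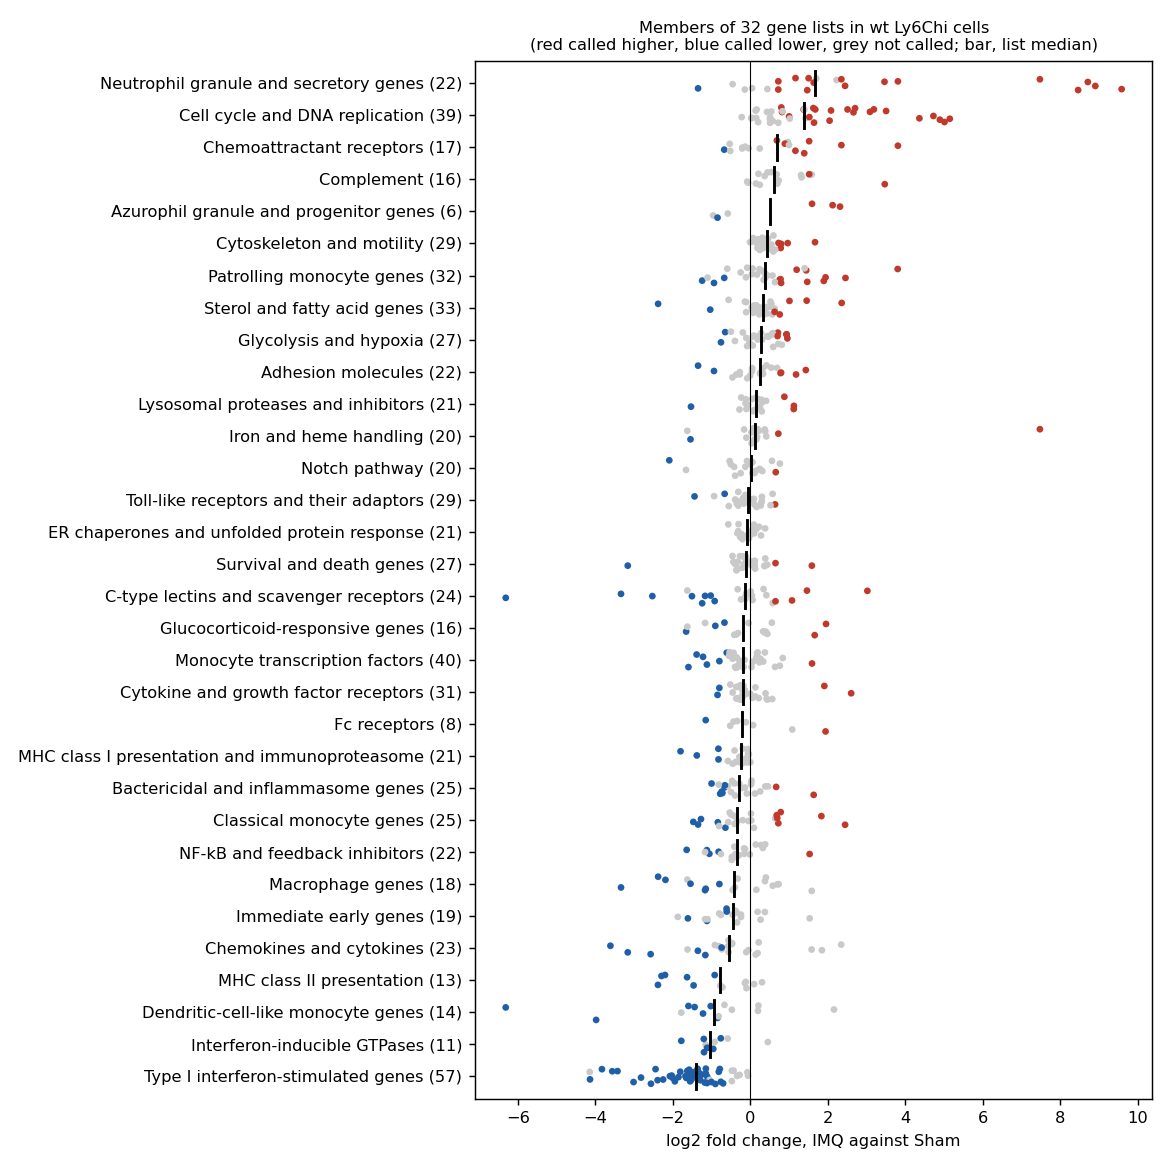
Log2 fold change between IMQ and Sham of every tested member of 32 gene lists in wt Ly6Chi cells, with lists ordered by their median (black bar) and the number of members tested in brackets. Red members rose, blue members fell and grey members did not pass the test. The list of type I interferon-stimulated genes lies lowest, with a median of -1.41, and that of neutrophil granule and secretory genes, of which the filter kept 22 of 37, lies highest, with a median of 1.67.

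The largest rises were those of genes known from neutrophils. Of 37 neutrophil granule and secretory genes listed, 22 passed the filter on low values, of which 15 rose and 1 fell, where 4.43% of all genes tested rose. The filter favours members that are high after IMQ: 10 of the 22 were under 50 in all wt Sham libraries, 8 of them among those that rose, and 15 listed genes were too low to be tested. Of the 12 members that reached 50 in a wt Sham library, 7 rose and 1 fell. The count of 15 is therefore a description and not a share of the whole list. Without IMQ 4, 13 rose. *S100a9* and *S100a8* encode the subunits of calprotectin, which sequesters metal ions and signals alarm. *S100a8* (ENSMUSG00000056054.9, chromosome 3, 90668978 to 90670035) was at 4, 0, 11 and 0 normalized counts in Sham 1 to 4 and at 561, 545, 930 and 3257 in IMQ 1 to 4 (log2 fold change 8.46, SE 0.83, adjusted p = 1.5e-04), and *S100a9* was listed at 0 in all Sham libraries and at 685, 617, 499 and 1651 in IMQ 1 to 4. The groups are far apart in both genes. *Lcn2* (ENSMUSG00000026822.14, chromosome 2, 32384633 to 32388252), lipocalin-2, which binds bacterial siderophores, was at 3, 5, 13 and 18 normalized counts in Sham 1 to 4 and at 1151, 1325, 1470 and 2861 in IMQ 1 to 4 (log2 fold change 7.48, SE 0.47, adjusted p = 1.9e-05). *Lrg1*, a secreted acute-phase glycoprotein, was at 1, 0, 0 and 0 normalized counts in Sham 1 to 4 and at 520, 456, 259 and 1005 in IMQ 1 to 4. *Wfdc21*, a secreted whey acidic protein, was listed at 0 in all Sham libraries and at 346, 349, 375 and 1163 in IMQ 1 to 4. In each of these 5 genes IMQ 4 was the highest library.

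IMQ 4 held the highest IMQ value in 14 of the 15 listed genes that rose, against 51.3% of all genes that rose. The summed value of the 22 genes was 34722, 34582, 42104 and 62101 in IMQ 1 to 4 and between 22316 and 27404 in Sham libraries. All 5 genes passed the test without IMQ 4 as well. IMQ 4 also had the highest mitochondrial share and the most hemoglobin transcripts, and without the 3 libraries richest in hemoglobin transcripts 10 of the listed genes rose. The part of the mitochondrial share was not tested. The log2 fold change of *S100a8* was 7.95 in the first library series, which does not hold IMQ 4, and 8.97 in the second, and for *Lcn2* these values were 7.98 and 6.98.

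Defining transcripts of mature neutrophils stayed at or near 0 in the same libraries. *Ly6g* was at 0 in all IMQ libraries and at most 1 in Sham libraries, *Camp* was at 0 in all 8, *Retnlg* was at most 4, *Ltf* at most 7, *Ngp* at most 8 and *Mmp9* at most 10. *Cxcr2*, the neutrophil chemokine receptor, was at 0, 4, 4 and 2 normalized counts in Sham 1 to 4 and at 12, 7, 1 and 19 in IMQ 1 to 4. *Csf3r*, the G-CSF receptor, was high in both groups and lower after IMQ, at 6278, 5655, 5563 and 5524 normalized counts in Sham 1 to 4 and at 4860, 4161, 4037 and 3787 in IMQ 1 to 4 (log2 fold change -0.45), and *Cd177* fell (log2 fold change -1.35, SE 0.11, adjusted p = 7.4e-05), while *Padi4* overlapped between the groups. The 14 markers of neutrophils summed to between 10603 and 12215 in Sham and between 10747 and 17668 in IMQ libraries, and 1 of them was at 0 and 6 at 10 or less in all 8 libraries. Members with more counts in every IMQ library than in any Sham library at over 100 normalized counts were *S100a8*, *S100a9*, *Lcn2* and *Mmp8*, a collagenase of neutrophil granules.

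**Figure D3:**
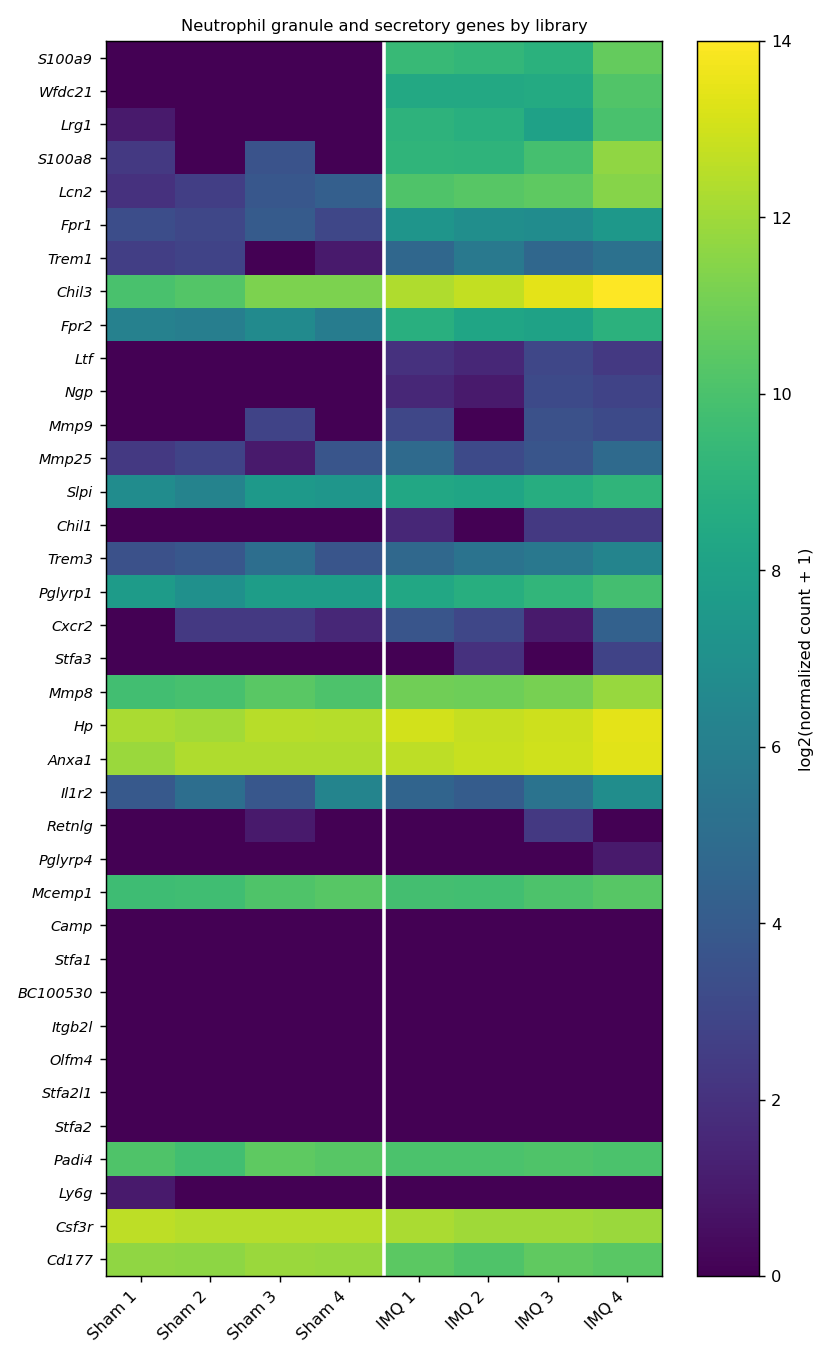
Heat map of all genes of the neutrophil granule and secretory list found in the table, tested or not, as log2(normalized count + 1) in Sham 1 to 4 and IMQ 1 to 4, ordered by their mean log2 difference. *S100a9*, *Wfdc21*, *Lrg1*, *S100a8* and *Lcn2* lead the order, IMQ 4 is the brightest column among them, and *Camp* and *Ly6g* are dark throughout.

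Of the same list, *Chil3* (Ym1), a chitinase-like protein of young monocytes, was at 1017, 1200, 2412 and 2442 normalized counts in Sham 1 to 4 and at 5103, 6612, 11144 and 16990 in IMQ 1 to 4 (log2 fold change 2.45, SE 0.39, adjusted p = 0.00193), with the second series above the first in both groups. *Slpi*, an inhibitor of leukocyte proteases, rose by 3.04-fold (log2 fold change 1.64, SE 0.29, adjusted p = 0.0036) and *Hp*, haptoglobin, by 1.66-fold (log2 fold change 0.72, SE 0.14, adjusted p = 0.00667). Outside the list, *Saa3* (ENSMUSG00000040026.8, chromosome 7, 46711998 to 46715700), an acute-phase serum amyloid, was at 6, 4, 7 and 19 normalized counts in Sham 1 to 4 and at 665, 1097, 1209 and 2619 in IMQ 1 to 4 (log2 fold change 7.16, SE 0.47, adjusted p = 2.5e-05), and *Cd38*, an NAD-consuming ectoenzyme, was listed at 0 in all Sham libraries and at 292, 248, 77 and 457 in IMQ 1 to 4. *Abca13*, a large ABC transporter, was at 12, 3, 23 and 18 normalized counts in Sham 1 to 4 and at 801, 448, 450 and 451 in IMQ 1 to 4 (log2 fold change 5.39, SE 0.49, adjusted p = 1.1e-04), with IMQ 1 apart from the others. *Spint1*, a membrane-bound protease inhibitor, was at 1, 0, 0 and 0 normalized counts in Sham 1 to 4 and at 151, 143, 70 and 347 in IMQ 1 to 4.

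Of 15 azurophil granule and progenitor genes listed, 6 passed the filter, of which 3 rose and 1 fell. The 3 that rose were under 50 in every wt Sham library, so their number is a description of low genes and not a share of the list. *Prtn3*, the granule protease proteinase 3, was at 49, 24, 37 and 35 normalized counts in Sham 1 to 4 and at 234, 150, 151 and 195 in IMQ 1 to 4 (log2 fold change 2.32, SE 0.26, adjusted p = 3.2e-04). *Fcnb*, ficolin B, was at 32, 16, 23 and 17 normalized counts in Sham 1 to 4 and at 100, 71, 99 and 120 in IMQ 1 to 4 (log2 fold change 2.13, SE 0.30, adjusted p = 9.7e-04). *Cebpe*, a transcription factor of granulocyte maturation, was low, at 7, 14, 11 and 15 normalized counts in Sham 1 to 4 and at 36, 43, 30 and 37 in IMQ 1 to 4 (log2 fold change 1.59, SE 0.35, adjusted p = 0.0112). All 3 genes had every IMQ value above every Sham value, yet at levels far below those of *Chil3*. *Flt3*, a receptor of progenitors and dendritic cells, fell by 1.77-fold (log2 fold change -0.84, SE 0.19, adjusted p = 0.0139). The 8 markers of granulocyte-monocyte progenitors summed to between 79 and 93 in Sham and between 274 and 329 in IMQ libraries, with *Prtn3* the most abundant of them after IMQ. Among the others, *Elane*, neutrophil elastase, was at most 3 in Sham and at 15, 27, 22 and 23 in IMQ 1 to 4, and *Mpo*, myeloperoxidase, was at 7, 9, 4 and 7 in Sham 1 to 4 and at 28, 31, 36 and 9 in IMQ 1 to 4. *Kit* was at most 9 in any library, and *Cd34* was at 15 to 23 in Sham and at 2 to 9 in IMQ libraries. The part of progenitors in these values was not tested.

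Of 23 receptors for chemoattractants listed, 17 passed the filter, of which 7 rose and 1 fell, where 4.43% of all genes tested rose. The median log2 fold change of those tested was 0.69. The filter favours members that are high after IMQ, such as *Fpr1*, which was under 50 in every wt Sham library. The count is therefore a description and not a share of the whole list. Without the 3 libraries richest in hemoglobin transcripts, 3 rose. *Fpr1*, the receptor for formylated bacterial peptides, was at 9, 7, 15 and 7 normalized counts in Sham 1 to 4 and at 158, 121, 113 and 179 in IMQ 1 to 4 (log2 fold change 3.81, SE 0.32, adjusted p = 7.5e-05). *Fpr2*, its relative with ligands that include serum amyloid, was at 70, 62, 101 and 58 normalized counts in Sham 1 to 4 and at 458, 295, 267 and 502 in IMQ 1 to 4 (log2 fold change 2.35, SE 0.25, adjusted p = 2.5e-04). *C5ar1*, the C5a receptor, rose by 2.96-fold (log2 fold change 1.52, SE 0.23, adjusted p = 0.00129) and *Ltb4r1*, the leukotriene B4 receptor, by 1.86-fold (log2 fold change 0.89, SE 0.14, adjusted p = 0.00192). No value of the IMQ group overlapped the Sham group in these 4 genes. *Fpr1* and *Fpr2* also belong to the list of neutrophil genes, as do *Chil3* and *Hp*, which are on the list of classical monocyte genes too. The member that fell was *Cx3cr1*, the fractalkine receptor and reporter locus of the sort, at 3005, 2626, 4063 and 3802 normalized counts in Sham 1 to 4 and at 1652, 1988, 2377 and 2424 in IMQ 1 to 4 (log2 fold change -0.67, SE 0.16, adjusted p = 0.0168), and this call was lost without any 1 of IMQ 1, IMQ 2, Sham 3 or Sham 4. *Ccr2*, the receptor by which monocytes leave the marrow, was lower in every IMQ library, at 19471, 19284, 18528 and 19405 normalized counts in Sham 1 to 4 and at 13680, 13501, 12476 and 13440 in IMQ 1 to 4. Its difference was small but tight (log2 fold change -0.53, SE 0.08, adjusted p = 0.00116) and missed the fold threshold.

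Transcripts of chemokines and cytokines mostly went the other way. Of 38 listed, 23 passed the filter, of which 6 fell and 0 rose, where 5.07% of all genes tested fell. With the replicate block 9 fell and 1 rose, and within the second series alone 4 fell and 1 rose. *Cxcl10*, whose promoter is shown above, was at 138, 138, 208 and 181 normalized counts in Sham 1 to 4 and at 8, 24, 20 and 6 in IMQ 1 to 4 (log2 fold change -3.61, SE 0.42, adjusted p = 3.6e-04). *Tnfsf10*, the death ligand TRAIL, was at 169, 237, 127 and 126 normalized counts in Sham 1 to 4 and at 19, 42, 16 and 6 in IMQ 1 to 4 (log2 fold change -3.16, SE 0.48, adjusted p = 0.00151). *Csf1*, the macrophage growth factor, was at 119, 142, 127 and 108 normalized counts in Sham 1 to 4 and at 5, 38, 38 and 20 in IMQ 1 to 4 (log2 fold change -2.57, SE 0.53, adjusted p = 0.00777), and *Tnfsf13b*, the B cell factor BAFF, fell by 2.23-fold. The genes that fell include *Cxcl10* and *Tnfsf10*, which interferon is known to induce. *Il10ra*, the IL-10 receptor, fell by 1.73-fold (log2 fold change -0.80, SE 0.09, adjusted p = 3.3e-04). Among 31 cytokine and growth factor receptors tested 2 rose and 2 fell, where 4.43% of all genes tested rose and 5.07% fell. *Il18rap* and *Il21r* rose, the former at 65, 55, 48 and 39 normalized counts in Sham 1 to 4 and at 221, 147, 166 and 264 in IMQ 1 to 4 (log2 fold change 1.91, SE 0.24, adjusted p = 5.8e-04) and the latter by 5.86-fold (log2 fold change 2.60, SE 0.39, adjusted p = 0.0014).

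The genes that distinguish classical from patrolling monocytes moved in part. Of 25 classical monocyte genes, 6 rose and 5 fell. *Vcan*, the matrix proteoglycan versican, was at 3818, 3957, 4916 and 4773 normalized counts in Sham 1 to 4 and at 16964, 14842, 12389 and 18487 in IMQ 1 to 4 (log2 fold change 1.84, SE 0.13, adjusted p = 4.5e-05). *Gda*, guanine deaminase, rose by 1.74-fold and *S100a10*, the partner of annexin A2, by 1.63-fold. *Tmem176b* and *Tmem176a*, paired membrane proteins, fell by 2.78-fold and 2.44-fold, the former with little spread (log2 fold change -1.47, SE 0.08, adjusted p = 8.7e-06), and *Ms4a6b* fell by 1.57-fold, a call lost without Sham 1 or without Sham 2. Of the gate markers, *Ly6c2* and *Csf1r* did not pass the test. *Ly6c2*, which encodes the sorting antigen and has a near-identical neighbour, was at 3500, 2906, 6209 and 7215 normalized counts in Sham 1 to 4 and at 2615, 2686, 6233 and 6065 in IMQ 1 to 4 (log2 fold change -0.19, adjusted p = 0.779). Its second series lay above its first in both groups, and the groups overlapped. *Csf1r* was at 21835, 19741, 18224 and 19383 normalized counts in Sham 1 to 4 and at 17772, 17721, 14998 and 17242 in IMQ 1 to 4 (log2 fold change -0.23, adjusted p = 0.143).

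Of 32 patrolling monocyte genes tested, 10 rose and 3 fell, with a median log2 fold change of 0.38. IMQ 4 held the highest IMQ value in 9 of the 10 genes that rose. The count of rises was 6 without IMQ 3 or without IMQ 4, and 3 without the 3 libraries richest in hemoglobin transcripts (IMQ 4, Sham 1 and Sham 3). *Dusp16*, a phosphatase of MAP kinases, was at 205, 177, 165 and 95 normalized counts in Sham 1 to 4 and at 691, 749, 687 and 1492 in IMQ 1 to 4 (log2 fold change 2.46, SE 0.29, adjusted p = 3.8e-04), with IMQ 4 apart from the others. *Fcgr4*, an activating IgG receptor, was at 208, 140, 170 and 191 normalized counts in Sham 1 to 4 and at 412, 710, 643 and 1121 in IMQ 1 to 4 (log2 fold change 1.94, SE 0.26, adjusted p = 7.3e-04). *Cd300e*, an activating receptor of patrolling monocytes, was at 8, 7, 54 and 11 normalized counts in Sham 1 to 4 and at 58, 214, 242 and 589 in IMQ 1 to 4 (log2 fold change 3.81, SE 0.74, adjusted p = 0.00577). *Spn*, which encodes the CD43 that the gate excluded, was at 4512, 4786, 4742 and 5019 normalized counts in Sham 1 to 4 and at 5886, 8896, 8608 and 10007 in IMQ 1 to 4 (log2 fold change 0.78, SE 0.14, adjusted p = 0.0041). In all 4 genes every IMQ library was above every Sham library, as in 9.93% of all genes tested.

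In wt Ly6Clo cells after IMQ, these 4 genes had mean values of 14278, 13320, 10280 and 31758 in the same order, so that Ly6Chi cells after IMQ were well below them. The factors on which Ly6Clo cells depend did not pass the test. *Nr4a1* was at 3877, 3548, 4923 and 4175 normalized counts in Sham 1 to 4 and at 3858, 5445, 4936 and 5704 in IMQ 1 to 4 (log2 fold change 0.27, adjusted p = 0.226), and *Pou2f2* was at 3461, 3023, 6012 and 6727 normalized counts in Sham 1 to 4 and at 4087, 3997, 7156 and 6987 in IMQ 1 to 4 (log2 fold change 0.24, adjusted p = 0.645). The second series of *Pou2f2* lay above its first in both groups. By limma with the replicate block, the adjusted p was 0.0745 for *Nr4a1* and 0.028 for *Pou2f2*, and both genes missed the fold threshold. *Itgb3*, the beta-3 integrin that is also a platelet gene, fell by 1.91-fold (log2 fold change -0.94, SE 0.18, adjusted p = 0.00488). The 8 platelet markers, *Itgb3* among them, summed to between 444 and 660 in Sham and between 261 and 487 in IMQ libraries, most of it *Itgb3*. The other 3 platelet markers tested had positive log2 fold changes and did not pass the test, with *Pf4* at most 10 in Sham and at most 32 in IMQ libraries and *Ppbp* at most 11 and 41. With the replicate block, 1 of these 3 markers rose. The scavenger receptor *Cd36* was at 182, 149, 76 and 100 normalized counts in Sham 1 to 4 and at 28, 41, 84 and 65 in IMQ 1 to 4 (log2 fold change -1.24, SE 0.38, adjusted p = 0.0489). *Cd36* differed mainly in the first series, with a log2 fold change of -2.25 there and -0.24 in the second, and lost its call without any 1 of 6 libraries. *Notch2* was at 16041, 13799, 16214 and 14790 normalized counts in Sham 1 to 4 and at 14982, 14001, 13993 and 12656 in IMQ 1 to 4 and did not pass the test (log2 fold change -0.13, adjusted p = 0.392). Of 20 Notch pathway genes tested, 1 rose and 1 fell (5% each), near the 4.43% and 5.07% of all genes tested. *Jag1*, a Notch ligand, was low, at 52, 85, 30 and 57 normalized counts in Sham 1 to 4 and at 6, 8, 21 and 17 in IMQ 1 to 4 (log2 fold change -2.09, SE 0.46, adjusted p = 0.0118), and *Psen2*, a catalytic subunit of gamma-secretase, rose by 1.57-fold, a call lost without Sham 3.

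**Figure D4:**
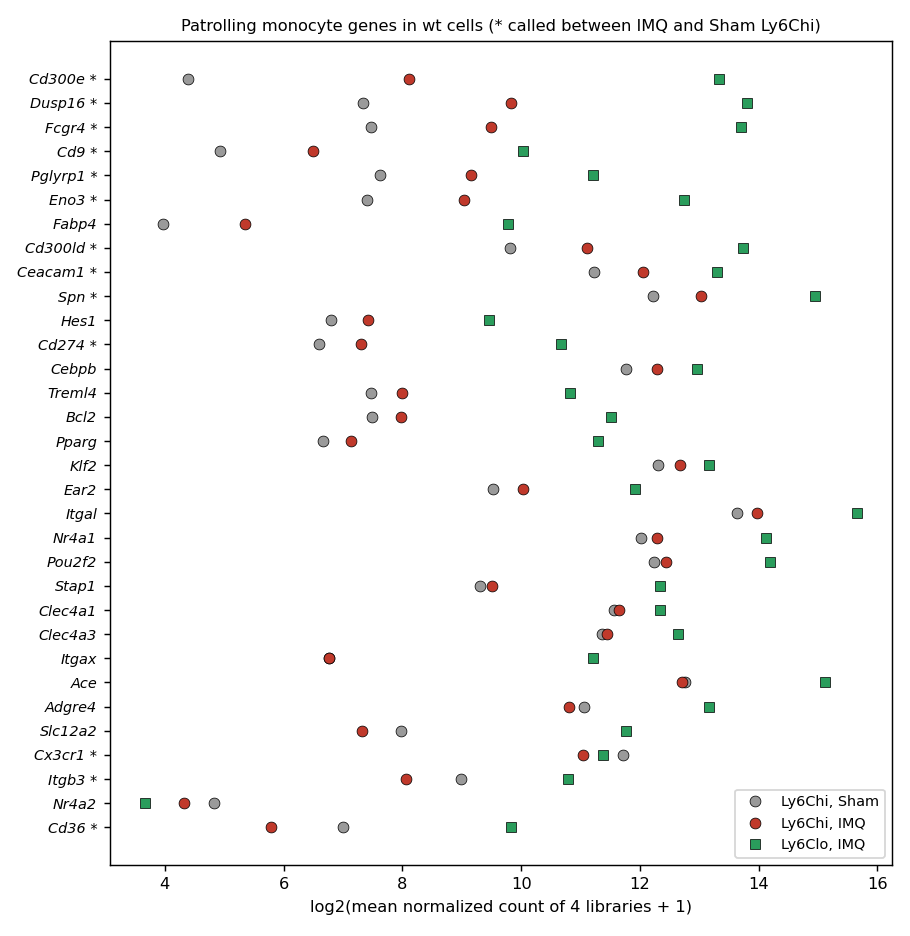
Mean normalized counts of 4 libraries, as log2(mean + 1), of 32 patrolling monocyte genes in wt Ly6Chi cells after Sham (grey circles) and IMQ (red circles) and in wt Ly6Clo cells after IMQ (green squares), ordered by the change in Ly6Chi cells, with asterisks on genes that rose or fell. *Cd300e*, *Dusp16* and *Fcgr4* lead, and for all 10 genes that rose the red circle lies between the grey circle and the green square.

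Of 49 genes of the cell cycle and DNA replication listed, 39 passed the filter on low values, of which 21 rose and 0 fell. Of these 39, 17 were under 50 in all wt Sham libraries, 12 of them among those that rose, and of the 22 that reached 50 in a wt Sham library 9 rose. With the replicate block 24 rose, where 5.82% of all genes tested rose, and leaving out 1 library gave between 16 and 21. Without the 3 libraries richest in hemoglobin transcripts, 14 rose. *Mki67* (ENSMUSG00000031004.8, chromosome 7, 135689784 to 135716361), the proliferation marker Ki-67, was at 232, 150, 297 and 389 normalized counts in Sham 1 to 4 and at 2396, 1680, 1258 and 1461 in IMQ 1 to 4 (log2 fold change 2.71, SE 0.28, adjusted p = 1.9e-04). *Top2a*, the topoisomerase that untangles replicated DNA, was at 55, 38, 55 and 43 normalized counts in Sham 1 to 4 and at 187, 225, 189 and 215 in IMQ 1 to 4 (log2 fold change 2.08, SE 0.19, adjusted p = 1.2e-04). *Cenpe*, a kinetochore motor of mitosis, was at 26, 25, 18 and 22 normalized counts in Sham 1 to 4 and at 307, 253, 145 and 186 in IMQ 1 to 4 (log2 fold change 3.19, SE 0.27, adjusted p = 8.3e-05), and *Mcm5*, part of the replicative helicase, was at 93, 132, 101 and 109 normalized counts in Sham 1 to 4 and at 331, 303, 256 and 246 in IMQ 1 to 4 (log2 fold change 1.38, SE 0.17, adjusted p = 4.6e-04). The groups do not overlap in these 4 genes, and *Mki67* and *Cenpe* were highest in IMQ 1, not IMQ 4. *Stmn1*, a tubulin-binding protein of dividing cells, was at 1, 3, 0 and 16 normalized counts in Sham 1 to 4 and at 167, 149, 54 and 106 in IMQ 1 to 4 (log2 fold change 5.01, SE 0.77, adjusted p = 0.00165). Within the first series alone 21 of the 39 rose, and within the second 10. The summed value of the list was 11805, 10946, 8937 and 9714 in IMQ 1 to 4 and between 6006 and 6393 in Sham libraries. Of the 43 replication-dependent histone genes that passed the filter, 4 rose without and 18 with the block, and 0 fell. Over all genes tested 4.43% rose without and 5.82% with the block. Histone genes too low to be tested were not counted.

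Of 27 glycolysis and hypoxia genes, 5 rose and 2 fell, with the lactate exporter *Slc16a3* at 695, 640, 568 and 636 normalized counts in Sham 1 to 4 and at 1049, 1313, 1211 and 1378 in IMQ 1 to 4 (log2 fold change 0.96, SE 0.11, adjusted p = 3.1e-04) and the glycolytic enzyme *Gapdh* up by 1.93-fold. *Ldha*, lactate dehydrogenase, rose by 1.64-fold, while *Hk2*, which starts glycolysis, fell by 1.69-fold and *Pfkfb3*, which sets its rate, by 1.57-fold, the latter call being lost without Sham 2. Enzymes of one pathway thus moved in both directions over the 8 libraries. Without the 3 libraries richest in hemoglobin transcripts, 5 of the listed genes rose and 0 fell. Of 33 sterol and fatty acid genes, 5 rose and 2 fell, and 3 rose without IMQ 2 or without Sham 3. The desaturase *Fads1* was at 18, 11, 17 and 15 normalized counts in Sham 1 to 4 and at 106, 72, 72 and 79 in IMQ 1 to 4 (log2 fold change 2.36, SE 0.28, adjusted p = 4.2e-04), *Scd2* rose by 2.74-fold and *Abca1*, the cholesterol exporter, fell by 2.04-fold (log2 fold change -1.03, SE 0.12, adjusted p = 4.2e-04). Of 21 chaperones and genes of the unfolded protein response, 0 rose and 0 fell by limma. *Calr* had a log2 fold change of 0.23 and *Hsp90b1* of -0.24, with adjusted p-values of 0.385 and 0.272. Of 81 cytosolic ribosomal protein genes tested 3 rose (3.7%) and of 77 nuclear genes of oxidative phosphorylation tested 3 rose (3.9%), with medians of 0.17 and 0.36. Both shares lay below the 4.43% of all genes tested that rose. With the replicate block 5 and 6 rose, where 5.82% of all genes tested rose.

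Among 40 transcription factors of monocytes, 1 rose (*Cebpe*) and 6 fell. *Bach2*, a repressor known from lymphocytes, was at 164, 217, 220 and 139 normalized counts in Sham 1 to 4 and at 59, 85, 90 and 50 in IMQ 1 to 4 (log2 fold change -1.38, SE 0.25, adjusted p = 0.00367). *Atf3*, a stress-induced factor, was at 1025, 1248, 955 and 1146 normalized counts in Sham 1 to 4 and at 356, 449, 775 and 505 in IMQ 1 to 4 (log2 fold change -1.12, SE 0.20, adjusted p = 0.00403), and *Egr1*, an immediate early gene, was at 202, 213, 266 and 213 normalized counts in Sham 1 to 4 and at 40, 73, 114 and 81 in IMQ 1 to 4 (log2 fold change -1.61, SE 0.28, adjusted p = 0.00339). Of 19 immediate early genes, 4 fell and 0 rose. The count of falls was 7 with the replicate block, 8 within the first series, 1 within the second and 2 without any 1 of IMQ 1, IMQ 2, Sham 2 or Sham 4. Among 16 glucocorticoid-responsive genes, *Fkbp5*, a chaperone of the glucocorticoid receptor, rose by 3.31-fold (log2 fold change 1.66, SE 0.21, adjusted p = 6.1e-04), while *Txnip* fell by 1.88-fold and *Zbtb16* by 2.72-fold. Of the 16 genes, 2 rose and 3 fell, and the calls of *Mt1*, a metallothionein that rose, and *Sesn1*, a sestrin that fell, were each lost without any 1 of 5 libraries. Within the first series 6 fell.

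Of 16 complement genes, 2 rose, and 4 with the replicate block. *C4b*, complement component C4, was at 101, 60, 34 and 51 normalized counts in Sham 1 to 4 and at 534, 628, 734 and 694 in IMQ 1 to 4, a 10.5-fold rise (log2 fold change 3.47, SE 0.28, adjusted p = 6.2e-05). Among 25 bactericidal and inflammasome genes, 6 fell and 2 rose, and 3 fell without any 1 of IMQ 3, Sham 2 or Sham 3. *Mpeg1*, the pore former perforin-2, fell by 1.58-fold and *Nlrp3*, an inflammasome sensor, by 1.65-fold (log2 fold change -0.72, SE 0.08, adjusted p = 3.6e-04), whereas *Pycard*, the inflammasome adaptor ASC, rose by 1.59-fold, a call that was lost without IMQ 4 or without Sham 2. Sensor and adaptor of this inflammasome therefore changed in opposite directions. Of 27 survival and death genes, 2 rose and 1 fell, with *Ripk3*, the kinase of necroptosis, at 190, 178, 148 and 232 normalized counts in Sham 1 to 4 and at 506, 610, 513 and 612 in IMQ 1 to 4 (log2 fold change 1.59, SE 0.15, adjusted p = 1.4e-04). Of 21 lysosomal genes, 3 rose and 1 fell, with cathepsin genes *Ctsd* and *Ctsl* up by 2.2-fold and 2.24-fold and *Ctse* down by 3.16-fold. Of 29 cytoskeletal genes, 5 rose and 0 fell, and 8 rose without IMQ 1. Among them was *Lmna*, lamin A, at 225, 389, 285 and 224 normalized counts in Sham 1 to 4 and at 708, 1025, 806 and 995 in IMQ 1 to 4 (log2 fold change 1.67, SE 0.19, adjusted p = 3.5e-04). Of 22 adhesion molecules 4 rose and 2 fell, with *Jaml*, an adhesion partner of CAR, up by 2.75-fold (log2 fold change 1.43, SE 0.15, adjusted p = 2.4e-04). Of 20 iron and heme genes 2 rose and 1 fell, the latter being *Spic*, whose call was lost without any 1 of 5 libraries. Of 8 Fc receptors 1 rose and 1 fell. Over all genes tested 4.43% rose and 5.07% fell, and the counts of the lists in this paragraph are to be read beside these shares.

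Large falls outside these lists included surface receptors. *Itga8*, the alpha-8 integrin, was at 123, 165, 132 and 207 normalized counts in Sham 1 to 4 and at 7, 2, 13 and 11 in IMQ 1 to 4 (log2 fold change -4.28, SE 0.47, adjusted p = 2.6e-04). *Aplnr*, the apelin receptor, was at 166, 148, 90 and 75 normalized counts in Sham 1 to 4 and at 8, 17, 8 and 3 in IMQ 1 to 4 (log2 fold change -3.71, SE 0.47, adjusted p = 5.5e-04). *Klrk1*, which encodes the activating receptor NKG2D, was at 235, 256, 176 and 243 normalized counts in Sham 1 to 4 and at 19, 18, 64 and 4 in IMQ 1 to 4 (log2 fold change -3.59, SE 0.61, adjusted p = 0.00272), while the 8 markers of NK cells summed to at most 50 in Sham and at most 7 in IMQ libraries. The unnamed gene models *Gm47242* and *Gm6545* fell by 8.91-fold and 10.3-fold.

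The same contrast in N2ΔMy mice used other libraries of both treatments and so gives the response in another set of samples. There *Notch2* itself was at 9298 ± 669 (SD, n = 4) after Sham and 7616 ± 491 (SD, n = 4) after IMQ, against 15211 ± 1135 and 13908 ± 955 in wt cells. In N2ΔMy cells 8.7% of the genes tested were called, 4.15% as risen and 4.55% as fallen. Of the 1066 genes called in wt cells, 1061 had the same direction in N2ΔMy cells and 734 were also called there, 333 higher and 401 lower. Type I interferon-stimulated genes fell in 49 of 57 members (median -1.38), neutrophil granule genes rose in 16 of the 22 tested, and cell cycle genes rose in 20 of the 39 tested. *S100a8* had a log2 fold change of 8.55, *Lcn2* of 8.43, *Ifit3* of -3.81, *H2-Ab1* of -2.59, *Mki67* of 2.46 and *Vcan* of 2.09 in N2ΔMy cells. Patrolling genes rose in 5 of 32 members there, against 10 in wt cells, with *Dusp16* at 1.41 and *Spn* at 0.46, the latter not called.

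The difference of the responses was tested as the interaction of genotype and treatment over the 16 Ly6Chi libraries. By limma it called 0 genes, with 177 genes at an unadjusted p under 0.05 (1.58% of the genes tested) and 0 calls under every alternative that was run. Among the 1066 genes called in wt cells, 48 had an unadjusted p under 0.05. A missing call does not show that the responses were equal.

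**Figure D5:**
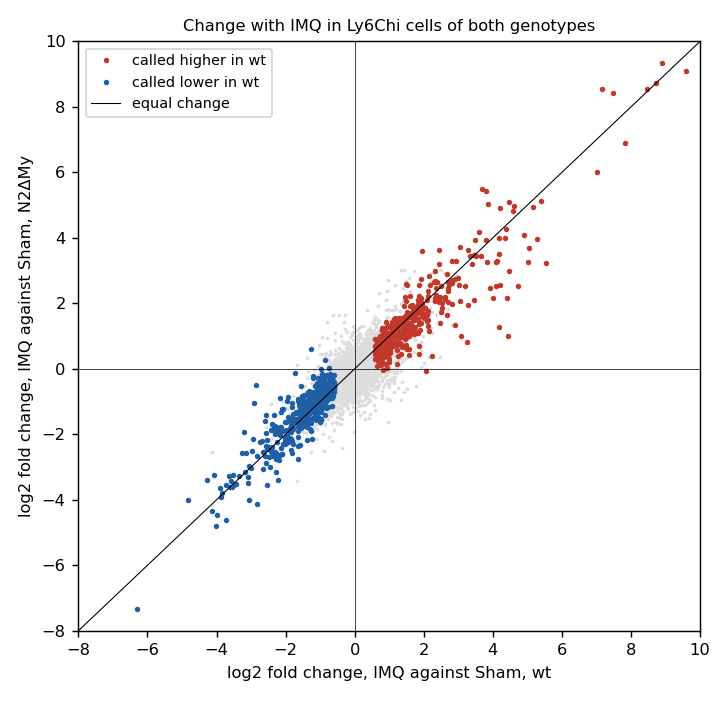
Log2 fold change between IMQ and Sham in Ly6Chi cells of wt (horizontal) and N2ΔMy mice (vertical) for all genes tested, with genes that rose in wt cells in red, those that fell in blue, others in grey and the line of equal change in black. Of the 1066 coloured genes, 1061 lie on the same side of 0 in both genotypes.

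The library series was balanced over the groups, so each series alone gives the contrast. All 1066 genes called over the 8 libraries had the same direction in both series, a description since these libraries were used for the call. The first series alone called 948 genes and the second 592, of which 457 were called in both and 0 in opposite directions. Type I interferon-stimulated genes fell in 48 members in the first series and in 49 in the second, and neutrophil granule genes rose in 13 and 14. The log2 fold changes of *Ifit3* were -3.94 and -3.71, those of *Vcan* 2.03 and 1.64 and those of *Mki67* 3.42 and 1.99 in the first and second series.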

How the data were processed

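RNA of sorted blood monocytes was sequenced by the authors with a stranded total RNA kit (SMARTer Pico) as single reads. Per the labels and the study's methods, reads were trimmed with Trim Galore 0.4.4 and aligned with STAR 2.5.3a to GRCm38.p6, and the gene counts were normalized with DESeq2. The authors deposited these values as a normalized score, gene counts divided by a size factor per library and rounded to whole numbers, for 53715 genes in 24 libraries without pooling. Raw counts were not used, so no counting intervals are given and precision comes from the SD or SE over 4 libraries. The strand setting of the counting is not given in the sources used here. Deposited columns with the authors' own comparisons (log2 fold changes, standard errors, Wald statistics and p-values) and a base mean were not used.

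Gene symbols came from GENCODE M21 (53620 identifiers matched), while the authors used M17. Genes with at least 50 in at least 1 of 24 libraries (11230) were compared as log2(value + 1) with limma 3.58.1 (R 4.3.3, eBayes with trend), so fold changes of low genes are understated. The thresholds were 0.05 for the p-value after Benjamini-Hochberg adjustment and 0.6 for the size of the log2 change. Depth was inferred from the steps between low values. The scripts were tested on simulated data.

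Named genes were the 10 largest rises and falls among called genes without overlap and with a higher-group mean of at least 100, up to 4 called members each way per list by p (where fewer than 2 were called, the 2 highest), and 11 fixed genes. Other genes were named after their values were seen, markers excepted. The members and lists were chosen with earlier results of these data known.

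Libraries of the same number deviated together from their group means (correlations 0.404, 0.399, 0.294 and 0.396). Libraries of the same series with different numbers did so too (0.313 to 0.430), and those of different series did not (-0.291 to -0.407). The correlations thus follow the library series and do not show a pairing by number, so the replicate block is given as an alternative only. With the replicate block, 1331 genes were called, 1065 of them also without it. Alternatives were another scaling (TMM), filters, pseudocounts, variance models, library series and leaving out libraries.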

Additional observations from a re-analysis of the deposited data

Results flagged for a closer look

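In 23 of 290 groups of 4 libraries of the named genes (7.93%), 1 library lay apart from the other 3 by more than Dixon's 95% critical value, where chance gives about 1 in 20. Of these, 8 were in IMQ 4, 4 in IMQ 3, 2 in IMQ 1 and 9 in Sham libraries.

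IMQ 4 was the highest for *S100a9* at 1651 (others 499 to 685), for *Wfdc21* at 1163 (346 to 375), for *S100a8* at 3257 (545 to 930), for *Dusp16* at 1492 (687 to 749), for *Jaml* at 702 (455 to 497), for *Clec4e* at 1451 (784 to 883) and for *Pycard* at 1529 (1151 to 1188) normalized counts. It was the lowest for *Tlr9* at 593 (832 to 879). IMQ 3 was the highest for *Cd209a* at 44 (1 to 3), for *Gm47242* at 117 (12 to 25), for *H2-Q6* at 127 (47 to 60) and for *Axl* at 409 (214 to 241), all of them genes that fell. IMQ 1 was the highest for *Abca13* at 801 (448 to 451) and the lowest for *Irak2* at 509 (595 to 610).

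Among Sham libraries, Sham 1 was apart for *Lrg1* and *Spint1*, each at 1 where the others were at 0, and for *Nlrp3* at 1579 (1382 to 1401). Sham 2 was apart for *S100a10* at 2106 (1757 to 1768) and *Tnfsf13b* at 116 (156 to 162). Sham 3 was apart for *Cd300e* at 54 (7 to 11), *Fasn* at 461 (689 to 712) and *Cstb* at 300 (162 to 183), and Sham 4 for *Tmem176a* at 1050 (714 to 756).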

How the results depend on the processing

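Under TMM scaling, other filters and pseudocounts, the fit without trend, the fit of all 24 libraries, the series covariate and the first series alone, the number of genes called in wt cells stayed between 948 and 1315, against 1066. The second series alone called 592 genes (272 higher, 320 lower). Without the 3 libraries richest in hemoglobin transcripts, a setting chosen after seeing the data, 490 were called (239 higher, 251 lower), with 5 libraries in place of 8. Leaving out 1 library gave 847 to 1091 genes (377 to 485 higher, 470 to 606 lower), fewest without IMQ 4, in N2ΔMy cells 768 to 907, and in the interaction 0 to 0. With the replicate block, 1331 genes were called (654 higher, 677 lower), and no named gene lost its call. Of 135 named genes that were called, 115 kept the call whichever single library was left out and 20 lost it at least once. Under the other settings with all 8 libraries, 14 lost it: *Cd36* under 4 of them (TMM scaling, no trend and both other treatments of low values), *Socs1*, *Cebpe* and *Spic* without the filter, *Flt3* and *Kmo* in the fit of all 24 libraries, *Nod2* there and without the trend, and *Cx3cr1*, *Cd302*, *Klf6*, *Btg2*, *Mt1*, *Sesn1* and *Bak1* without the trend. The second series alone left 34 named genes short of the threshold and the first 8, and the 5 libraries low in hemoglobin left 43. With those 5, falls were 36 for type I interferon-stimulated genes, 0 for patrolling genes, 1 for glucocorticoid-responsive genes, 4 for interferon-inducible GTPases, 1 for MHC class I, 2 for NF-kB genes, 2 for transcription factors, 1 for immediate early genes, 3 for classical genes and 5 for C-type lectins, and rises were 3 for classical genes, 1 for adhesion molecules, 1 for C-type lectins and 2 for sterol genes. No named gene changed direction in a called value, and none of the 10 that were not called gained a call. Raw counts were not used, so differences of genes near 0 could not be weighed by depth.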
